A study of Homo sapiens with 12 samples.

Results

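SR proteins and heterogeneous nuclear ribonucleoproteins (hnRNPs), the 2 large families of general splicing regulators, were measured by RNA-seq in human embryonic kidney HEK293 cells with and without RBFOX1. The members were a list of 34 gene symbols, matched by name to the gene count tables of both experiments. Each table held a row for 33 of them, of 37184 rows in experiment 1 and 31910 in experiment 2. These were 13 SR and TRA2 proteins and 20 hnRNPs, and all 33 passed the filter on low counts in both experiments. SRSF8 matched no row, so its level is not analysed here, but its promoter windows count in the promoter shares below.

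The series holds 12 libraries of total RNA in 2 experiments, each with 3 RBFOX1 and 3 control libraries. In experiment 1, induced cells of the line HEK293_Flp In/TO ΔFox2_Flag_mFox1, treated with doxycycline, were compared with uninduced cells of the same line, which were not treated. In experiment 2, induced cells of that line were compared with parental HEK293 cells, which were also labelled as treated with doxycycline. Per the labels, the line descends from 1 clone deficient in Rbfox2 and carries an HA-Flag-tagged Rbfox1 transgene that doxycycline switches on, and cells were harvested 2 weeks after induction with 0.5 µg/ml. The dose and time are not stated separately for parental cells. Induced and uninduced cells thus share the Rbfox2 deficiency and the transgene, and differ in doxycycline as well as in RBFOX1. Induced and parental cells share doxycycline and differ in the clone, the Rbfox2 deficiency and RBFOX1, whose parts in a difference cannot be told apart. Nothing in the labels tells whether replicates came from separate cultures, and the spread behind every p-value is therefore that between these libraries, possibly a technical one.

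SR proteins carry RNA recognition motifs and a domain rich in arginine and serine. They bind exonic enhancers, help the spliceosome to define exons, and are switched by phosphorylation of that domain. Proteins of the hnRNP families coat nascent transcripts and often act as silencers of splice sites. Most SR genes and several hnRNP genes limit their own level through alternative exons that bring in an early stop codon (poison exons), whose transcripts are removed by nonsense-mediated decay. Gene counts add up all forms of a gene, so the productive and the poison-exon forms cannot be told apart here.

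The series as a whole bears on these values in a few ways. Libraries held 34025315 to 55298749 gene counts in experiment 1 and 37663525 to 50261916 in experiment 2. RBFOX1 had 39.4, 39.5 and 38.8 CPM in induced cells, against 4.41, 3.64 and 3.26 CPM in uninduced cells. In experiment 2 RBFOX1 had 39.8, 39.7 and 41.0 CPM in induced cells, against 0 counts in each parental library. RBFOX2 averaged 50.8 ± 4.76 CPM in induced cells and 184 ± 0.0715 CPM in parental cells (SD, n = 3 each), and in experiment 1 it averaged 53.7 ± 2.78 CPM in induced cells and 53.7 ± 3.9 CPM in uninduced cells. Of 6 HEK293 markers listed, 4 had a row: VIM was at 737 to 972 CPM, INA was above 20 CPM in every library, PAX2 was low, and NEFM reached 34.6 to 38.7 CPM in parental cells alone. Of markers listed for other cells, PTPRC (blood cells), DCN and COL1A2 (fibroblasts) and ALB (hepatocytes) were at or near 0 in all libraries. Others were detected. In experiment 1 the blood cell marker VAV1 averaged 1.53 CPM in induced and 2.42 CPM in uninduced cells. The fibroblast marker COL1A1 averaged 2.17 and 3.11 CPM, and both were called lower. In experiment 2, 3 of 5 blood cell and 2 of 5 fibroblast markers were tested. Of these, 2 and 2 were called lower, with log2 fold changes down to -8.97 and -2.96. The mitochondrial rRNA MT-RNR2 took 21.7% to 24.1% of counts in experiment 1 and 0.0286% to 0.0638% in experiment 2, so levels were scaled within each experiment and no level was tested across experiments. CPM (the count scaled to the effective library size) carries no gene length, so levels are not ranked between genes.

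Promoters of 4 genes are shown. SRSF3 and SRSF6 had the largest log2 fold changes of the members in experiment 1, and HNRNPH2 the largest in size in experiment 2. SRSF5 was called in opposite directions in the 2 experiments. Other members with clear differences below, such as HNRNPUL1, are not shown. Each sequence is the 250 bases before the gene's start, 5′ to 3′ on the gene's strand, from RefSeq on GRCh38.p14, with motif matches in capitals. The positions are chr6:36594112-36594361 for SRSF3, chr20:43457646-43457895 for SRSF6, chr14:69766892-69767141 for SRSF5 and chrX:101407972-101408221 for HNRNPH2, all on the plus strand.
SRSF3: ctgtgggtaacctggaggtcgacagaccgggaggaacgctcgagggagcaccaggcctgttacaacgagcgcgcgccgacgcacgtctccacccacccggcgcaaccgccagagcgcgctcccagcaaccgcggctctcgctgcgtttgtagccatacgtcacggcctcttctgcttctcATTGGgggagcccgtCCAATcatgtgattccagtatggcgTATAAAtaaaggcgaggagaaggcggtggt
SRSF6: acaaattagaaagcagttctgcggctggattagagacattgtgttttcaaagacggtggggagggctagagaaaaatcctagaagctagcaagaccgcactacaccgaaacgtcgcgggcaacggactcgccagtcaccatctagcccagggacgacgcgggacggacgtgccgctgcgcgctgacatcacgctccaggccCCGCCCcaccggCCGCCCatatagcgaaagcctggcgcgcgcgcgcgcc
SRSF5: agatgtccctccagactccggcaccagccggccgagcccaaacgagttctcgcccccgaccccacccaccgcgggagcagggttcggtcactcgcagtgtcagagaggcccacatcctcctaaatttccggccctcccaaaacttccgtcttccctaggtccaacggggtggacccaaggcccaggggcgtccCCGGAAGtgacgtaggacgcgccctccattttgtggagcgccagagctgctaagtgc
HNRNPH2: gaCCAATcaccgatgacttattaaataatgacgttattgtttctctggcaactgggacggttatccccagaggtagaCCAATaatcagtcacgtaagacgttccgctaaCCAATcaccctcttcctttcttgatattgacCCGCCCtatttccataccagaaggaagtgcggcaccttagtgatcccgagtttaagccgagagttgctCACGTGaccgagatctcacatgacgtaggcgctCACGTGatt
The motifs searched, on both strands, were the CCAAT box (CCAAT), the GC box (GGGCGG), the TATA box (TATAAA), an ETS motif (CCGGAAG), an E box (CACGTG) and the NRF1 motif of 10 bases. The SRSF3 window holds 2 CCAAT matches and 1 TATAAA, that of SRSF6 holds 2 GGGCGG, that of SRSF5 holds 1 CCGGAAG, and that of HNRNPH2 holds 3 CCAAT, 1 GGGCGG and 2 CACGTG. The table had windows for 31 of the 34 members, 43 windows in all. GGGCGG stood in 60.5% of these windows and in 42.6% of all 35116 promoters, CCAAT in 39.5% and 32.0%, TATAAA in 14.0% and 10.7%, CCGGAAG in 14.0% and 8.52%, CACGTG in 9.30% and 6.35%, and the NRF1 motif in 0% and 1.03%. The median GC content was 64.8% in the members' windows and 58.0% in all. A match to these letters is a description of the window and no evidence of a bound factor.

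In experiment 1, 12 of 33 members were called at an adjusted p under 0.05, 10 higher and 2 lower in induced than in uninduced cells. Over all 18978 genes tested, 20.9% were called, 10.5% higher and 10.4% lower. Among the genes within the members' range of mean CPM, 25.6% were called, 14.2% higher and 11.4% lower. SR and TRA2 proteins made up most of the calls, with 7 higher and 2 lower of 13, against 3 higher and 0 lower of 20 hnRNPs. The median log2 fold change was 0.22 for SR and TRA2 proteins, 0.058 for hnRNPs and 0.0026 for all genes. None of the 12 changes reached 1.5-fold, a size called higher in 2.30% and lower in 3.36% of all genes.

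**Figure D1:**
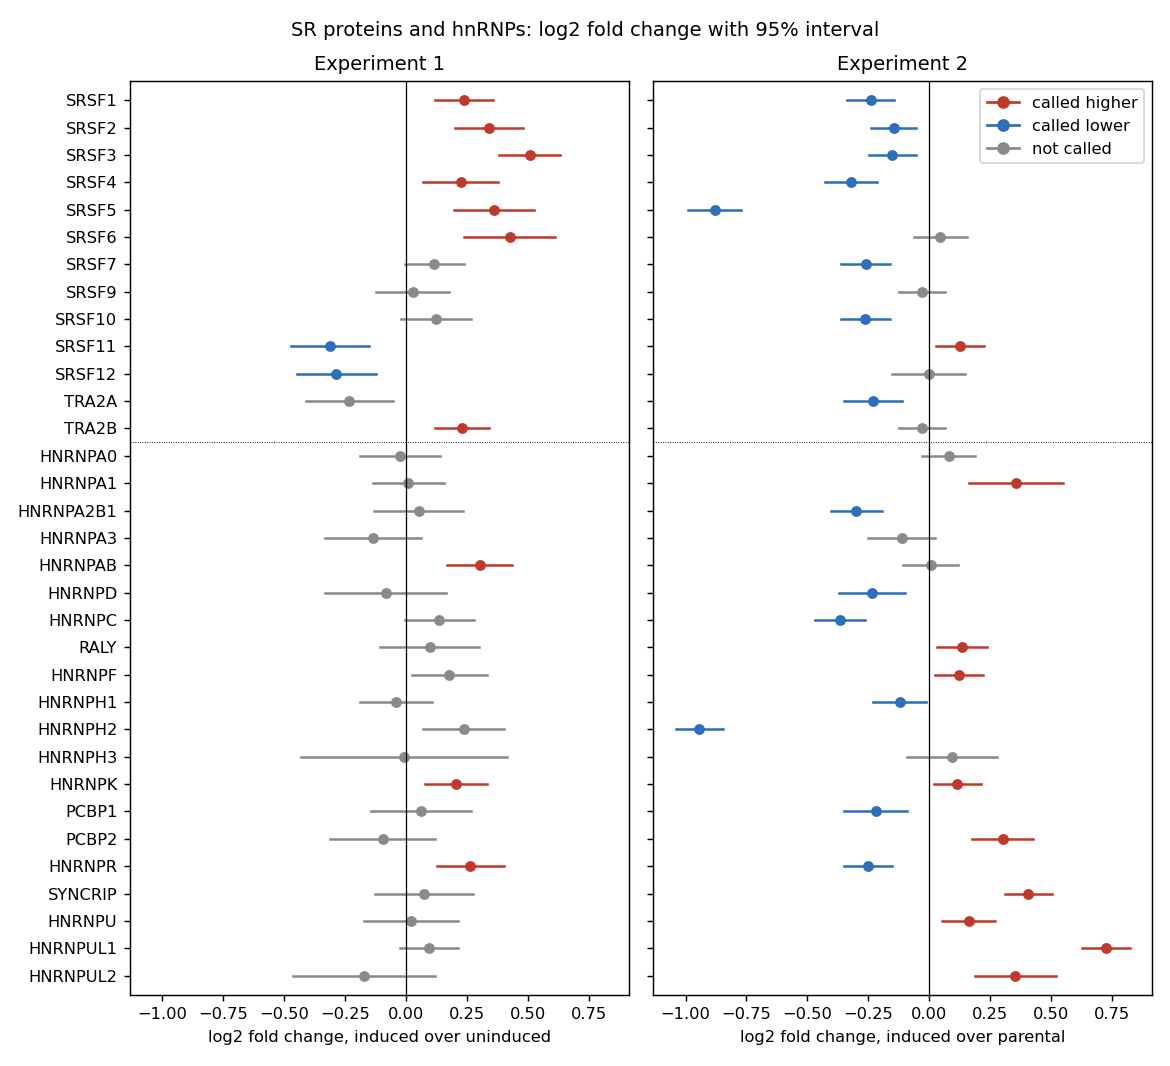
Log2 fold change of the 33 members with its 95% interval (x axis, same scale in both panels), induced over uninduced cells in experiment 1 (left) and induced over parental cells in experiment 2 (right), SR and TRA2 proteins above the dotted line and hnRNPs below. SRSF1 to SRSF6 lie right of 0 in experiment 1, and SRSF5 at -0.88 and HNRNPH2 at -0.94 stand apart on the left in experiment 2.

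The 6 SR proteins numbered SRSF1 to SRSF6 all rose in induced cells of experiment 1. SRSF3, the smallest SR protein and also an adaptor for mRNA export, had 289.8, 271 and 286 CPM in induced cells, against 204, 194 and 196 CPM in uninduced cells. The lowest induced library was thus well above the highest uninduced one, with a log2 fold change of 0.51 (SE 0.055, adjusted p = 7.84e-04), the largest of the family in this experiment. SRSF6 (SRp55) had 147, 156 and 142 CPM in induced cells, against 104, 102 and 126 CPM in uninduced cells. The groups did not overlap, although uninduced replicate 3 stood above the other two uninduced libraries, and the log2 fold change was 0.43 (SE 0.083, adjusted p = 0.00853). SRSF5, a close relative of SRSF4 and SRSF6, had 97.3, 83.5 and 83.7 CPM in induced cells, against 64.4, 70.5 and 71.2 CPM in uninduced cells. Induced replicate 1 was the highest of 6 and the groups stayed apart, with a log2 fold change of 0.36 (SE 0.073, adjusted p = 0.01).

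SRSF2 (SC35), which binds exonic enhancers and marks nuclear speckles, had 218, 194 and 214 CPM in induced cells, against 165, 170.5 and 158 CPM in uninduced cells. All induced libraries were above all uninduced ones, with a log2 fold change of 0.34 (SE 0.063, adjusted p = 0.00677). SRSF1 (SF2/ASF), the founding SR protein, had 300.3, 285 and 294 CPM in induced cells, against 252, 247 and 246 CPM in uninduced cells. Its spread within groups was small and its log2 fold change was 0.24 (SE 0.052, adjusted p = 0.0138). SRSF4 (SRp75) had 47.4, 45.0 and 47.7 CPM in induced cells, against 37.9, 38.1 and 44.0 CPM in uninduced cells, with uninduced replicate 3 close under the induced range. Its log2 fold change was 0.22 (SE 0.069, adjusted p = 0.0455).

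Of the TRA2 proteins, which bind GAA-rich exonic enhancers, only TRA2B was called in experiment 1. TRA2B had 205, 214 and 208 CPM in induced cells, against 178, 179 and 177 CPM in uninduced cells, so the groups lay clearly apart, and its log2 fold change was 0.23 (SE 0.05, adjusted p = 0.0129). TRA2A had 41.5, 43.5 and 40.8 CPM in induced cells, against 46.1, 46.0 and 55.8 CPM in uninduced cells. Here the induced libraries were the lower ones without overlap, but the log2 fold change of -0.23 (SE 0.079, adjusted p = 0.0664) did not pass. TRA2A was called without the filter (adjusted p = 0.0165) and in the fit of all 12 libraries (0.035).

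SRSF11 and SRSF12 moved the other way. SRSF11 (p54), an SR protein that contacts U2AF at the 3′ splice site, had 314, 334 and 308 CPM in induced cells, against 381, 373 and 432 CPM in uninduced cells. Its induced libraries were all below the uninduced ones, of which replicate 3 was the highest, and it fell with a log2 fold change of -0.31 (SE 0.072, adjusted p = 0.0164). SRSF12, a relative of SRSF10 that can oppose other SR proteins, had 21.7, 22.5 and 20.4 CPM in induced cells, against 25.8, 24.7 and 28.3 CPM in uninduced cells. The groups did not overlap and SRSF12 fell with a log2 fold change of -0.29 (SE 0.072, adjusted p = 0.0232).

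SRSF7 (9G8), SRSF9 (SRp30c) and SRSF10, a splicing repressor when dephosphorylated, were not called in experiment 1. Their log2 fold changes were 0.12 (95% interval -0.0042 to 0.24), 0.027 (95% interval -0.12 to 0.18) and 0.12 (95% interval -0.021 to 0.27). SRSF7 did separate the groups, with 164, 156 and 161 CPM in induced cells, against 151, 150.0 and 141 CPM in uninduced cells. Summed over the 13 genes, SR and TRA2 transcripts came to 2101 to 2144 CPM in induced cells, against 1869 to 1969 CPM in uninduced cells. In bulk samples, a difference in RNA per cell and one in the share of cells that make it cannot be told apart.

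The calls of SRSF2, SRSF3, SRSF5 and SRSF6 held in all 6 fits that left out 1 library, with adjusted p of at most 0.0425. Other calls were lost in some of them: SRSF1 without induced replicate 1, induced replicate 3 or uninduced replicate 2 (adjusted p up to 0.0667), TRA2B without induced replicate 3 or uninduced replicate 2 (up to 0.0609), SRSF11 without induced replicate 1 or 3 (up to 0.0847), SRSF12 without those or uninduced replicate 1 (up to 0.107), and SRSF4 in every one except that without uninduced replicate 3 (up to 0.16). The call of SRSF4 was also lost on scaling alone, with library totals (adjusted p = 0.118), DESeq2 size factors (0.0539) and the upper quartile (0.0877).

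**Figure D2:**
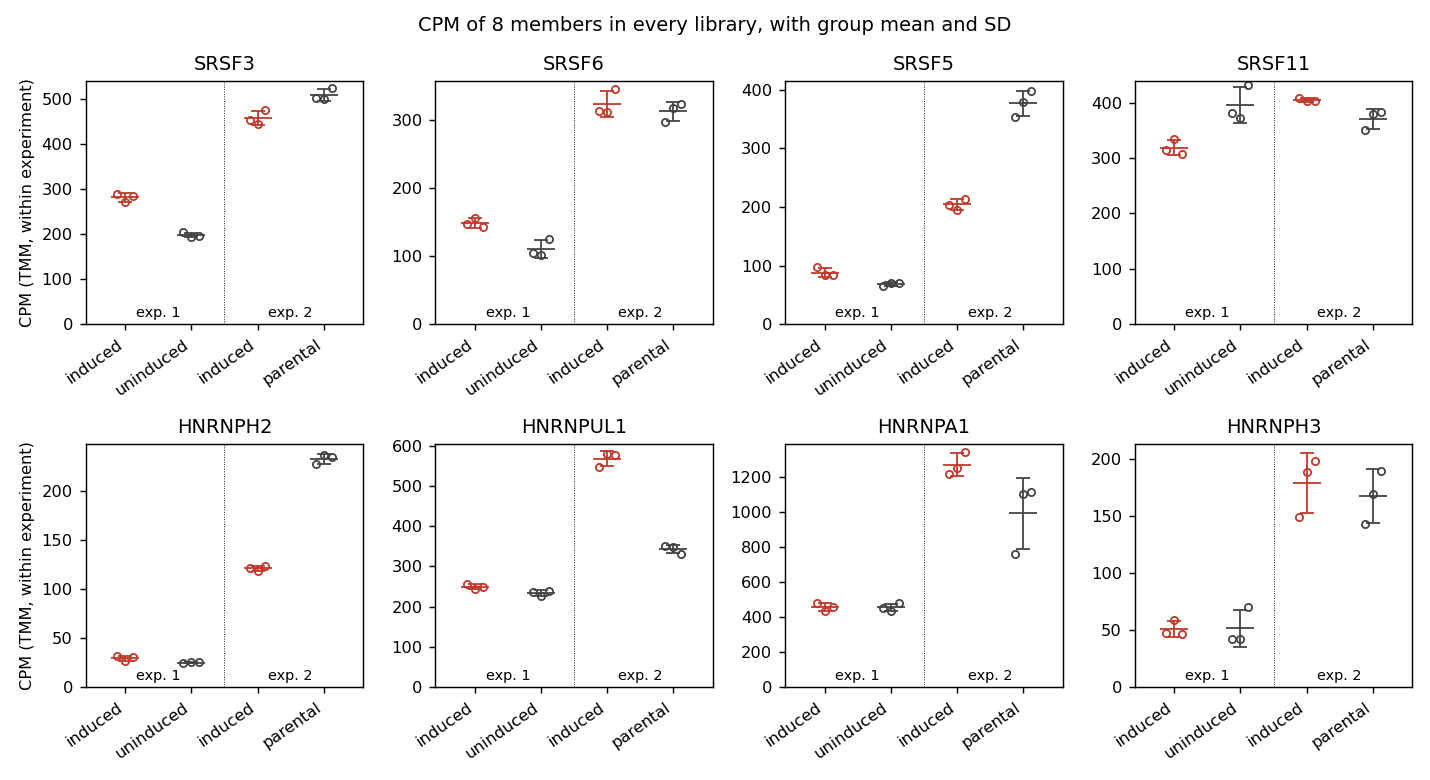
CPM (y axis from 0) of 8 members in every library, with induced cells in red left of their controls in grey, experiment 1 left of the dotted line and experiment 2 right of it; circles are libraries, and bars are the mean and SD of 3. SRSF3 separates upward in experiment 1, SRSF5 and HNRNPH2 separate downward in experiment 2, and single libraries stand out for HNRNPH3 (uninduced replicate 3) and HNRNPA1 (parental replicate 1).

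Among hnRNPs, HNRNPAB, HNRNPK and HNRNPR rose in experiment 1 and none fell. HNRNPAB, a nuclear and cytoplasmic RNA-binding protein related to HNRNPD, had 137, 137 and 133 CPM in induced cells, against 107, 105 and 118 CPM in uninduced cells. Its groups did not overlap, and the log2 fold change of 0.30 (SE 0.06, adjusted p = 0.00894) was the largest among hnRNPs. HNRNPR, which with SYNCRIP forms a subfamily with roles in mRNA transport, had 288, 280.4 and 267 CPM in induced cells, against 225, 224 and 247 CPM in uninduced cells. Its log2 fold change was 0.26 (SE 0.062, adjusted p = 0.017), again without overlap. HNRNPK, which binds C-rich RNA, had 485, 452 and 467 CPM in induced cells, against 400.1, 409 and 409 CPM in uninduced cells. The uninduced libraries lay within 10 CPM of each other and below all induced ones, with a log2 fold change of 0.20 (SE 0.057, adjusted p = 0.0333).

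The call of HNRNPAB held without each library in turn (adjusted p up to 0.0459). That of HNRNPR was lost without induced replicate 1 or uninduced replicate 1 or 2 (up to 0.0775), and that of HNRNPK in every leave-one-out fit except those without induced replicate 2 or uninduced replicate 3 (up to 0.126). With library totals the calls of HNRNPK (adjusted p = 0.0711) and HNRNPR (0.0513) were lost, and with the upper quartile that of HNRNPK (0.0671).

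The other 17 hnRNPs were not called in experiment 1, and their log2 fold changes ran between those of HNRNPUL2 at -0.17 and HNRNPH2 at 0.24. HNRNPH2, which binds G-rich runs like its paralogs HNRNPF and HNRNPH1, came nearest to a call. It had 31.3, 26.2 and 30.2 CPM in induced cells, against 24.2, 25.0 and 25.4 CPM in uninduced cells, without overlap, and an adjusted p of 0.0515. It was called without the filter (adjusted p = 0.0288), by DESeq2 (0.0495) and in the fit of all 12 libraries (0.012). HNRNPF (log2 fold change 0.18) and HNRNPC (0.14), whose tetramers package nascent RNA, also separated the groups but missed the threshold with adjusted p of 0.0964 and 0.156. HNRNPF was called in the fit of all 12 libraries (adjusted p = 0.0492). The abundant regulators HNRNPA1, a splicing silencer, and HNRNPU, a nuclear scaffold protein, had log2 fold changes of 0.0095 and 0.021, with intervals of -0.14 to 0.15 and -0.17 to 0.22. The signs of these 2 values turned with the scaling, to -0.012 and -0.0021 with library totals and to -0.022 and -0.012 with the upper quartile.

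In all, 18 of 33 members had groups that did not overlap in experiment 1, where 40.1% of all genes did. Uninduced replicate 3, the library with the lowest total and with 1.68% of its counts in RN7SK (2.71% to 3.5% in the other 5), stood apart for many members. It also departed over all tested genes. The mean correlation of log2 CPM with the rest of the group was 0.9943 for it, against 0.9963 and 0.9966 for uninduced replicates 1 and 2. In uninduced replicate 3, 16 of 33 members exceeded 1.1 times the mean of the other two uninduced libraries. In uninduced replicate 1 it was 1 of 33 and in uninduced replicate 2 it was 1 of 33. The matching share of all genes was not computed. HNRNPH3, a shorter relative of HNRNPH1, was the extreme case, with 47.6, 58.9 and 46.3 CPM in induced cells, against 41.9, 41.8 and 70.5 CPM in uninduced cells. Without uninduced replicate 3 its log2 fold change was 0.285 (adjusted p = 0.0217), against -0.0092 with it. Without that library 14 members were called higher and 2 lower, and HNRNPH2, HNRNPH3, SRSF10 and SYNCRIP joined the calls. Calls over all genes also went up without it, to 26.9%, against 20.9% with it. Its part in the other differences was not tested beyond this.

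**Figure D3:**
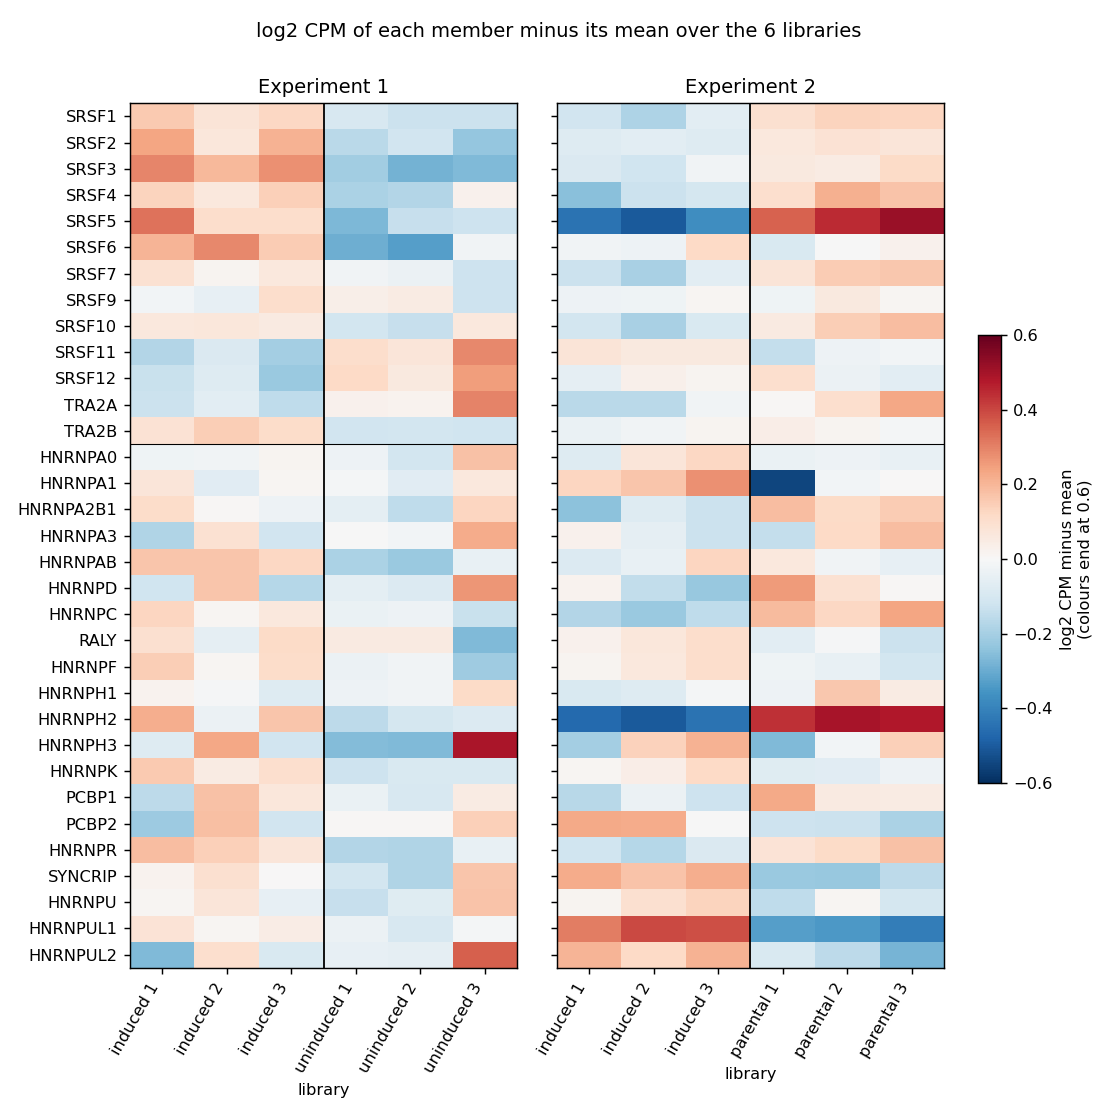
Log2 CPM of each member (rows) minus its mean over the 6 libraries of the same experiment (columns), with induced libraries left of the controls in each panel; red is above and blue below the mean, and colours end at 0.6. Uninduced replicate 3 differs from the other two uninduced libraries in many rows, most of all for HNRNPH3, and parental replicate 1 is dark blue for HNRNPA1.

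In experiment 2, 25 of 33 members were called, 10 higher and 15 lower in induced than in parental cells. Calls were frequent throughout: 65.0% of the 17945 genes tested were called, 32.1% higher and 32.9% lower. Within the members' range of mean CPM the share was 77.8%, 37.9% higher and 39.9% lower, so the members' share of calls is near this background. Only HNRNPUL1 rose and only SRSF5 and HNRNPH2 fell by at least 1.5-fold, a size called higher in 16.4% and lower in 14.6% of all genes. The median absolute log2 fold change was 0.22 for members and 0.39 for all genes.

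SR and TRA2 proteins were mostly lower in induced than in parental cells, with 8 lower, 1 higher and 4 not called, and a median log2 fold change of -0.15 (-0.0091 for all genes). SRSF5 had 204, 195 and 214 CPM in induced cells, against 354, 379 and 397 CPM in parental cells. Every induced library was far below the lowest parental one, and the log2 fold change was -0.88 (SE 0.052, adjusted p = 3.50e-12). SRSF4 had 165, 180.1 and 183 CPM in induced cells, against 211, 228 and 221 CPM in parental cells, without overlap. Its log2 fold change was -0.32 (SE 0.051, adjusted p = 1.05e-05).

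SRSF1 had 469, 447 and 485 CPM in induced cells, against 543, 557 and 554 CPM in parental cells, and it fell with a log2 fold change of -0.24 (SE 0.047, adjusted p = 1.20e-04). SRSF3 had 455, 444 and 476 CPM in induced cells, against 503, 501 and 524 CPM in parental cells. The gap between the groups was narrower than in experiment 1 and of the opposite direction, with a log2 fold change of -0.15 (SE 0.047, adjusted p = 0.00723). SRSF2 had 289.5, 292 and 290.4 CPM in induced cells, against 319, 325 and 322 CPM in parental cells, with libraries of a group within a few CPM of each other and a log2 fold change of -0.15 (SE 0.044, adjusted p = 0.00605).

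SRSF7, SRSF10 and TRA2A fell as well, with log2 fold changes of -0.26, -0.26 and -0.23 and groups that did not overlap. SRSF11 was the 1 SR protein that rose. It had 408, 403 and 403 CPM in induced cells, against 350.5, 378 and 382 CPM in parental cells, so its groups were again apart but with induced cells above, at a log2 fold change of 0.13 (SE 0.047, adjusted p = 0.0227). This call was lost without induced replicate 1 or parental replicate 1 (adjusted p up to 0.104). SRSF6 had 314, 312 and 345 CPM in induced cells, against 298, 318 and 324 CPM in parental cells. These groups overlapped and the log2 fold change of 0.046 (SE 0.051, adjusted p = 0.446) was not called. SRSF9, SRSF12 and TRA2B were not called either, with log2 fold changes of -0.03, -0.0028 and -0.03. The summed SR and TRA2 level was 3606 to 3808 CPM in induced cells, against 4067 to 4282 CPM in parental cells.

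The hnRNPs moved in both directions in experiment 2, with 9 higher, 7 lower and 4 not called, and a median log2 fold change of 0.087. Among genes in the members' range of mean CPM, 37.9% were called higher and 39.9% lower, so these counts are near the background. All 3 members of the U subfamily, large nuclear proteins that bind RNA and chromatin, rose. HNRNPUL1 had 547, 581 and 578 CPM in induced cells, against 352, 348 and 332 CPM in parental cells. The lowest induced library stood far above the highest parental one, and the log2 fold change was 0.72 (SE 0.047, adjusted p = 1.74e-11). HNRNPUL2 had 18.1, 17.0 and 18.1 CPM in induced cells, against 14.8, 14.1 and 12.9 CPM in parental cells, apart at a low level, with a log2 fold change of 0.35 (SE 0.079, adjusted p = 5.55e-04). HNRNPU rose with a log2 fold change of 0.16 (SE 0.052, adjusted p = 0.00973), and its groups only just failed to overlap, with 1414 CPM in the lowest induced and 1410 CPM in the highest parental library. The call of HNRNPU was lost in the fit of all 12 libraries (adjusted p = 0.0803).

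HNRNPH2 fell most of all members. It had 121, 118 and 123.3 CPM in induced cells, against 227, 236 and 234 CPM in parental cells, a gap many times the spread within a group, and a log2 fold change of -0.94 (SE 0.046, adjusted p = 1.48e-13). Its paralogs differed far less: HNRNPH1 fell with a log2 fold change of -0.12 (SE 0.052, adjusted p = 0.0475) and overlapping groups, HNRNPF rose with 0.12 (SE 0.047, adjusted p = 0.0261), and HNRNPH3 was not called at 0.093. The calls of HNRNPH1 and HNRNPF were lost in 4 of 6 leave-one-out fits each, with adjusted p up to 0.243 and 0.111. RefSeq also lists a readthrough gene, RPL36A-HNRNPH2, over HNRNPH2, and how the authors counted reads shared by overlapping genes is not given in the sources used here.

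In the pair of HNRNPR and SYNCRIP (hnRNP Q), the 2 genes moved in opposite directions. SYNCRIP had 826, 797 and 824 CPM in induced cells, against 607, 605 and 634 CPM in parental cells, well apart, with a log2 fold change of 0.41 (SE 0.046, adjusted p = 1.04e-07). HNRNPR had 943, 910.5 and 964 CPM in induced cells, against 1084, 1110 and 1158 CPM in parental cells, apart the other way, with a log2 fold change of -0.25 (SE 0.047, adjusted p = 9.20e-05). The C-binding proteins split likewise. PCBP2 had 73.9, 73.6 and 63.0 CPM in induced cells, against 57.8, 57.6 and 55.3 CPM in parental cells and rose with a log2 fold change of 0.30 (SE 0.06, adjusted p = 1.57e-04). PCBP1, an intronless relative, had 38.3, 41.9 and 39.4 CPM in induced cells, against 50.3, 44.6 and 44.5 CPM in parental cells and fell with a log2 fold change of -0.22 (SE 0.062, adjusted p = 0.00389). HNRNPK rose by a small margin, with a log2 fold change of 0.12 (SE 0.047, adjusted p = 0.0364), a call lost in 4 of 6 leave-one-out fits (adjusted p up to 0.169).

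HNRNPC and its relative RALY also diverged. HNRNPC had 1779, 1725 and 1809 CPM in induced cells, against 2294, 2188 and 2370 CPM in parental cells, with every induced library below every parental one, and fell with a log2 fold change of -0.37 (SE 0.049, adjusted p = 1.06e-06). RALY rose with a log2 fold change of 0.13 (SE 0.049, adjusted p = 0.0212), without overlap, and lost the call without induced replicate 2 or 3 or parental replicate 3 (adjusted p up to 0.0996).

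Of the A/B and D proteins, HNRNPA2B1 and HNRNPD fell and HNRNPA1 rose. HNRNPA2B1, which binds UAG-containing RNA and sorts RNAs for transport, had 842, 945 and 912 CPM in induced cells, against 1134, 1080 and 1107 CPM in parental cells, without overlap. Its log2 fold change was -0.30 (SE 0.05, adjusted p = 2.37e-05). HNRNPD (AUF1), a regulator of mRNA decay, fell with a log2 fold change of -0.23 (SE 0.064, adjusted p = 0.00314), although the groups overlapped. HNRNPA1 had 1217, 1249 and 1345 CPM in induced cells, against 760.5, 1101 and 1115 CPM in parental cells. Parental replicate 1 stood far below the other two, and the log2 fold change of 0.36 (SE 0.092, adjusted p = 0.00192) became 0.20 without it, with the adjusted p at or under 0.00772 whichever library was left out. The DESeq2 Wald test did not call HNRNPA1. HNRNPA0, HNRNPA3 and HNRNPAB were not called, with log2 fold changes of 0.08, -0.11 and 0.0056. HNRNPA0 was called without induced replicate 1, HNRNPA3 without parental replicate 1 and HNRNPH3 without induced replicate 1. Small changes of experiment 2 depended on the settings. With the upper quartile the calls of SRSF11, RALY, HNRNPF and HNRNPK were lost (adjusted p of 0.0603, 0.0572, 0.0732 and 0.0961), with DESeq2 size factors that of HNRNPH1 (0.0576), and without the filter those of RALY and HNRNPK (0.0578 and 0.0706). In the fit of all 12 libraries these 5 calls were lost as well (adjusted p of 0.0842 to 0.125). In all, 23 of 33 members had groups that did not overlap in experiment 2, against 68.0% of all genes.

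**Figure D4:**
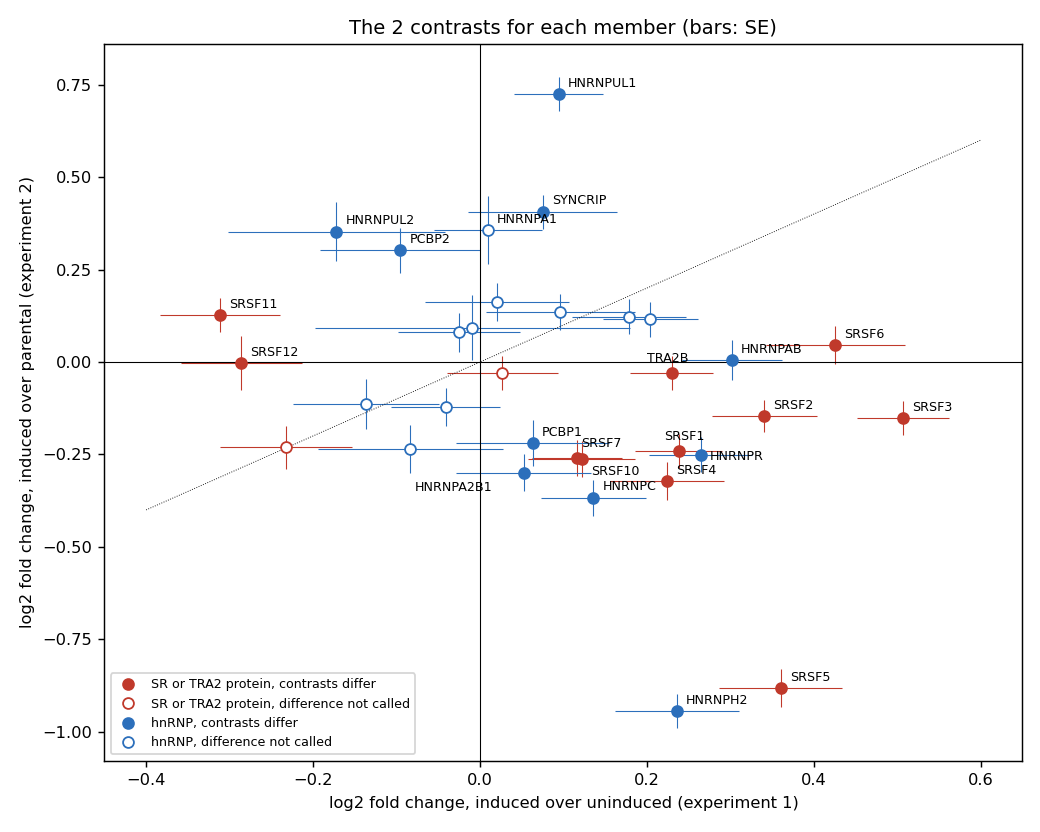
Log2 fold change of each member in experiment 1 (x axis) and in experiment 2 (y axis), with SE bars; red points are SR or TRA2 proteins, blue points hnRNPs, filled where the difference between the contrasts was called, and the dotted line marks equal values. SRSF1 to SRSF5 and HNRNPR lie right of 0 and below 0, SRSF11 lies left of 0 and above 0, and SRSF5 and HNRNPH2 lie farthest below the dotted line.

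The contrast of experiment 1 was set against that of experiment 2 by an interaction contrast over all 12 libraries (edgeR, 19942 genes). Of 33 members, 21 were called different, 15 with a higher and 6 with a lower log2 fold change in experiment 1, where 52.2% of all genes were called. The controls differ in kind, uninduced cells of the line in experiment 1 and parental cells in experiment 2. SRSF5 differed most, by 1.24 (95% interval 1.03 to 1.45, adjusted p = 7.40e-09) on the log2 scale, followed by HNRNPH2 at 1.18 (95% interval 1.00 to 1.36, adjusted p = 2.63e-09). SRSF3 differed by 0.66 (95% interval 0.50 to 0.82, adjusted p = 1.07e-06) and HNRNPUL1, on the other side, by -0.63 (95% interval -0.79 to -0.47, adjusted p = 1.66e-06).

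Calls in opposite directions were made for 7 of 33 members, against 9.96% of the 17084 genes tested in both experiments. SRSF1, SRSF2, SRSF3, SRSF4, SRSF5 and HNRNPR rose in experiment 1 and fell in experiment 2, while SRSF11 fell in experiment 1 and rose in experiment 2. Some leave-one-out fits lost the experiment 1 calls of SRSF1, SRSF4, SRSF11 and HNRNPR and the experiment 2 call of SRSF11. Both calls of SRSF2, SRSF3 and SRSF5 held in all of these fits. The differences of SRSF1, SRSF2, SRSF4 and HNRNPR lay between 0.48 and 0.55, and that of SRSF11 was -0.44 (95% interval -0.62 to -0.25, adjusted p = 3.95e-04). HNRNPK was the only member called higher in both and 0 were called lower in both (6.24% of genes were called in the same direction in both), and its 2 contrasts were not called different (0.089 (95% interval -0.076 to 0.25, adjusted p = 0.366)). TRA2A had nearly equal values in the 2 experiments, -0.23 and -0.23, with a difference of -0.0027 (95% interval -0.23 to 0.22, adjusted p = 0.987). HNRNPA1 missed the threshold at -0.35 (95% interval -0.66 to -0.039, adjusted p = 0.0556). Between 19 and 21 members were called when any 1 of the 12 libraries was left out.

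The members sit within a larger splicing machinery, of which 104 other genes in 7 lists were followed. In experiment 1, 26 of 103 tested were called higher and 5 lower. In experiment 2, 26 of 102 were called higher and 56 lower. The shares among genes in the members' range of mean CPM were 14.2% higher and 11.4% lower in experiment 1 and 37.9% higher and 39.9% lower in experiment 2, and list counts near these shares are no result about a list. Proteins of the tri-snRNP and the catalytic core counted 9 higher and 0 lower of 19 in experiment 1, against 3 higher and 13 lower of 19 in experiment 2. SNRNP40 of the U5 snRNP rose with a log2 fold change of 0.51 (SE 0.068, adjusted p = 0.00169) in experiment 1 and fell with -0.44 (SE 0.048, adjusted p = 6.72e-08) in experiment 2. PRPF19, a ubiquitin ligase of the spliceosome, had log2 fold changes of 0.43 (SE 0.052, adjusted p = 0.0013) and -0.31 (SE 0.051, adjusted p = 1.49e-05) in that order of experiments. The U1 and U2 snRNP and branch point list had 7 higher and 0 lower of 23 in experiment 1, led by SF1, which binds the branch point (0.49 (SE 0.068, adjusted p = 0.00221)), and U2AF2, which binds the polypyrimidine tract (0.48 (SE 0.084, adjusted p = 0.00557)). In experiment 2 it had 7 higher and 11 lower, with SNRPD1, a core Sm protein, the lowest at -0.82 (SE 0.05, adjusted p = 5.83e-12) and SF3B5 the highest at 0.57 (SE 0.061, adjusted p = 3.79e-08).

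**Figure D5:**
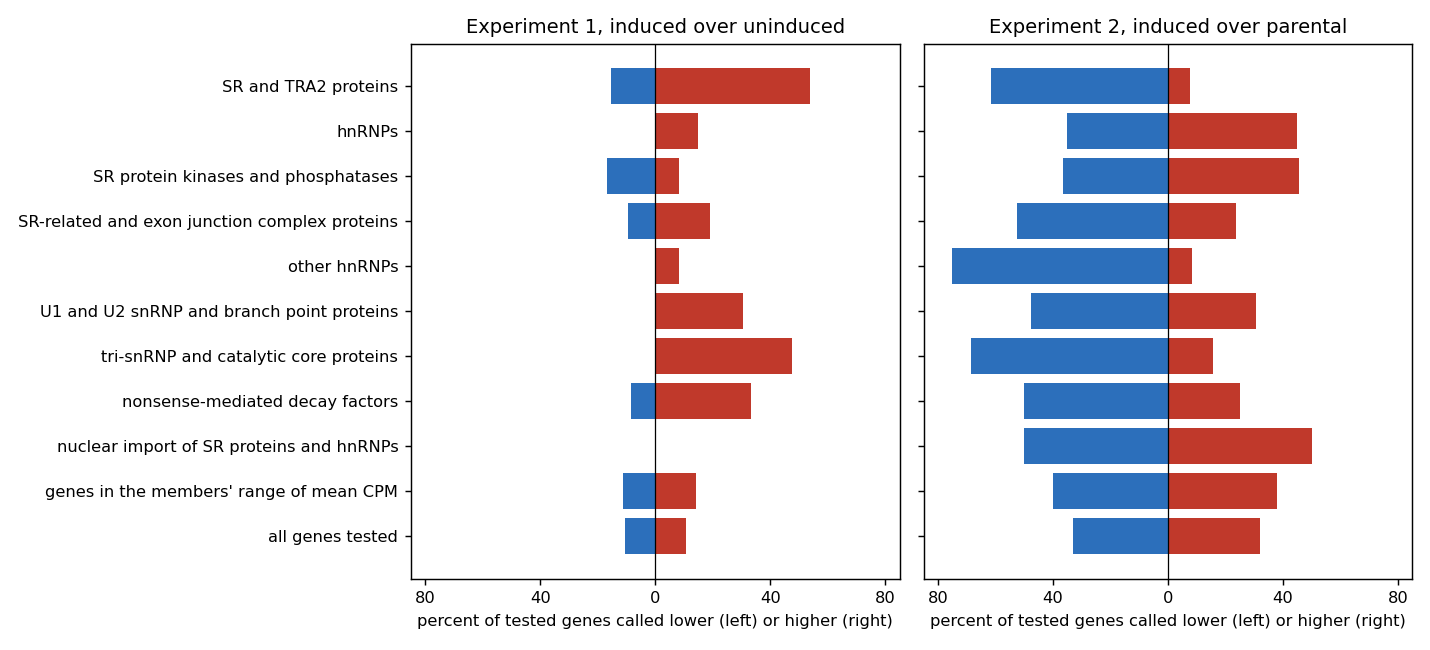
Percent of tested genes called higher (red, right of 0) or lower (blue, left of 0) in induced cells, for the SR and TRA2 proteins, the hnRNPs, the 7 lists of other splicing genes, the genes in the members' range of mean CPM and all genes tested, in experiment 1 (left) and experiment 2 (right). SR and TRA2 proteins had 7 of 13 called higher in experiment 1 and 8 of 13 called lower in experiment 2, while all genes split almost evenly in each.

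Kinases and phosphatases act directly on SR proteins. CLK1, a nuclear kinase that releases SR proteins from speckles, had 31.5, 27.7 and 26.3 CPM in induced cells, against 40.2, 45.5 and 48.0 CPM in uninduced cells. All induced libraries were below all uninduced ones, with a log2 fold change of -0.64 (SE 0.086, adjusted p = 0.00186), and in experiment 2 CLK1 also fell (-0.42 (SE 0.062, adjusted p = 5.44e-06)). CLK4 fell in experiment 1 (-0.34 (SE 0.063, adjusted p = 0.00693)) and rose in experiment 2 (0.66 (SE 0.06, adjusted p = 3.86e-09)). SRPK2, a kinase of the arginine-serine domain, had 115, 112 and 109.5 CPM in induced cells, against 60.9, 58.8 and 62.2 CPM in parental cells and rose with a log2 fold change of 0.89 (SE 0.049, adjusted p = 1.15e-12). Its paralog SRPK1 was not called in either experiment. The catalytic subunit PPP1CA of protein phosphatase 1 rose in experiment 1 (0.45 (SE 0.10, adjusted p = 0.0161)) and fell in experiment 2 (-0.31 (SE 0.046, adjusted p = 4.23e-06)). In experiment 2 PPP1CB fell (-0.63) and PPP1CC rose (0.16), CLK2 fell (-0.34), and CLK3 and DYRK1A rose (0.30 and 0.41). In all, 1 of 12 rose and 2 fell in experiment 1, and 5 of 11 rose and 4 fell in experiment 2.

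The SR-related and exon junction complex list had 4 higher and 2 lower of 21 in experiment 1, and 5 higher and 11 lower of 21 in experiment 2. EIF4A3, the helicase at the core of the exon junction complex, rose in experiment 1 (0.31 (SE 0.067, adjusted p = 0.0122)) and fell in experiment 2 (-0.73 (SE 0.052, adjusted p = 7.15e-11)), while RSRC2 fell in experiment 1 (-0.55 (SE 0.065, adjusted p = 0.0011)). Other hnRNPs counted 1 higher (HNRNPM, 0.25) and 0 lower of 12 in experiment 1, and 1 higher (HNRNPL, 0.45) and 9 lower of 12 in experiment 2, where the RNA helicase DDX5 fell most (-0.66 (SE 0.048, adjusted p = 1.24e-10)). Nonsense-mediated decay factors had 4 higher and 1 lower of 12 in experiment 1, with SMG8 the highest (0.50 (SE 0.093, adjusted p = 0.00705)) and UPF3B lower (-0.34). In experiment 2 they had 3 higher and 6 lower of 12, with SMG9, a partner of the kinase SMG1, at 1.07 (SE 0.053, adjusted p = 1.98e-13). Of 4 nuclear import receptors, 0 were called in experiment 1 and 2 higher and 2 lower in experiment 2. Only 1 of these 31 calls of experiment 1 reached 1.5-fold, that of CLK1.

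Circular RNAs from the members were scarce. The tables of back-splice junction reads listed 68 circRNAs from 22 member genes in experiment 1 and 86 from 20 in experiment 2, of which 45 and 30 had 1 read in all. Only 3 and 8 had the 10 reads over 3 libraries needed for a test, and 0 were called in each experiment, where 0% and 1.68% of all tested circRNAs were called by edgeR. At an unadjusted p under 0.05 there were 0 of 3 and 2 of 8, against 4.53% and 11.9% of all circRNAs tested, and the DESeq2 Wald test called 0 in each. Member genes gave 0.120% to 0.216% of all back-splice reads per library in experiment 1 and 0.232% to 0.408% in experiment 2. Exact 95% binomial intervals were wide, such as 0.062% to 0.209% for uninduced replicate 3 with 12 reads, and cover counting error only.

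The leading circRNA in both experiments was a single exon of 215 bases in SRSF4, at chromosome 1 from 29481208 to 29481422 on the minus strand of GRCh37 (hg19). It had 3, 6 and 7 reads in induced cells, against 11, 8 and 3 reads in uninduced cells, and in experiment 2 it had 21, 16 and 24 reads in induced cells, against 25, 23 and 53 reads in parental cells. The groups overlapped in both experiments, with log2 fold changes of -0.54 (SE 0.54, adjusted p = 0.965) and -0.43 (SE 0.36, adjusted p = 0.768). A circRNA of 3 exons of HNRNPC, at chromosome 14 from 21698478 to 21702388 on the minus strand, had 5, 1 and 1 reads in induced cells, against 7, 5 and 18 reads in parental cells. Its unadjusted p of 0.0364 became 0.358 on adjustment, and in experiment 1 it had 10 reads in induced and 15 in uninduced cells. A circRNA of 6 exons of HNRNPUL1, at chromosome 19 from 41774128 to 41787180 on the plus strand, had 1, 5 and 8 reads in induced cells, against 0, 0 and 3 reads in parental cells (unadjusted p = 0.0482, adjusted p = 0.412). Differences of this size in member circRNAs could not be told from the spread between libraries at these depths.

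Some member rows share sequence with processed pseudogenes, so their counts are less certain. Rows named as pseudogenes of HNRNPA1 held 13.7% of its own counts in experiment 1 and 12% in experiment 2, those of HNRNPA3 14.8% and 13.3%, those of HNRNPC 7.09% and 4.97%, those of PCBP2 4.64% and 2.00%, and those of HNRNPK 4.25% and 2.39%. The share was alike in the 2 groups of an experiment, such as 13.5% in induced and 13.8% in uninduced cells for HNRNPA1. Adding these rows to their members left the numbers called at 10 higher and 2 lower in experiment 1 and 10 higher and 15 lower in experiment 2.

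Replicates of a group differed by little for most members. The median coefficient of variation over the 33 members was 4.35% in induced and 6.66% in uninduced cells of experiment 1, and 3.85% in induced and 4.04% in parental cells of experiment 2. The widest were HNRNPH3 at 32.3% in uninduced cells, HNRNPA1 at 20.2% in parental cells, HNRNPUL2 at 17.1% in uninduced cells, HNRNPH3 at 14.7% in induced cells of experiment 2 and PCBP2 at 14.7% in induced cells of experiment 1. HNRNPH3 also spread in parental cells, at 14.1%. Summed hnRNP transcripts came to 5136 ± 108 CPM in induced and 4885 ± 264 CPM in uninduced cells, and to 11880 ± 336 CPM in induced and 12020 ± 337 CPM in parental cells (SD, n = 3 each). In each experiment the difference between the groups was smaller than the larger SD.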

How the data were processed

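Total RNA of 12 libraries was sequenced from both ends on an Illumina NextSeq500 after TruSeq RNA preparation, per the labels. STAR 2.5.2b and GRCh37 (hg19) are named in the submitters' processing notes, without a stated role, and the gene counter, the circRNA caller and the strand setting are not given in the sources used here. The authors deposited raw counts without normalization, as a gene table and a table of back-splice junction reads for each experiment. Columns were matched to samples by experiment, condition and replicate number, and members by the symbol given in the gene tables.

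For each experiment the whole gene table passed through the low-count filter of edgeR 4.0.16 (filterByExpr, at least 10 counts and 15 in total) in R 4.3.3, which left 18978 and 17945 genes. TMM scaling and edgeR's two-sided quasi-likelihood test (glmQLFTest) followed. A gene was called at a Benjamini-Hochberg adjusted p under 0.05 over all genes tested. CPM uses the effective library size within an experiment, errors of log2 fold changes come from the F statistic, and intervals are 95% intervals. Differences between the contrasts were tested in 1 edgeR fit of 12 libraries. Circular RNAs with at least 10 reads over at least 3 libraries were tested the same way, with the library sizes of the gene table. Promoter windows and readthrough names came from RefSeq tables of GRCh38.p14, and no coordinates were converted. Circular RNA positions count from 1.

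The procedure was tested on simulated data with few changed genes. Of 1.414-fold changes, 53.5% were called in experiment 1, 71% in experiment 2 and 13.4% in the interaction contrast. Of 2-fold changes these shares were 85.6%, 83.8% and 74.0%. Of 4-fold circRNA changes, 59.5% and 48.2% were called in experiments 1 and 2. For genes within an experiment, the simulated spread between libraries followed the trend fitted to the data. For the interaction contrast and the circRNAs it was a fixed value not estimated from the data. The shares given for those may therefore not hold for these libraries. Alternatives to the procedure were other scalings, no filter, a 1.5-fold limit, DESeq2 1.42.0, rows left out, a replicate block, 1 fit of 12 libraries and leaving out each library. Adding pseudogene rows was chosen after seeing the data. The members and lists were chosen with earlier results of these data known. All members are described; of each other list, up to 3 called genes with the largest change in each direction per experiment could be named (with any kinase or phosphatase), and of circRNAs the 5 with the most reads. A gene named under this rule in 1 experiment may be given in the other too.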

Additional observations from a re-analysis of the deposited data

Results flagged for a closer look

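The log2 fold change of 21 of 33 members differed between the 2 experiments by the interaction test over all 12 libraries in edgeR. Over all 19942 genes in this test, 52.2% were called, and their shares by direction were not computed. The values below are experiment 1 (induced over uninduced) minus experiment 2 (induced over parental), on the log2 scale. Since the controls are uninduced cells of the line in one and parental cells in the other, the experiment and the kind of control cannot be told apart.

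Among SR and TRA2 proteins, 9 had the higher value in experiment 1. The difference was 1.24 for SRSF5, 0.66 for SRSF3, 0.55 for SRSF4, 0.49 for SRSF2, 0.48 for SRSF1, 0.38 for SRSF10, 0.38 for SRSF6, 0.38 for SRSF7 and 0.26 for TRA2B. SRSF11 and SRSF12 differed the other way, by -0.44 and -0.28. Of the 13 measured, SRSF9 and TRA2A were not called.

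Among hnRNPs, 6 had the higher value in experiment 1. The difference was 1.18 for HNRNPH2, 0.51 for HNRNPR, 0.50 for HNRNPC, 0.35 for HNRNPA2B1, 0.30 for HNRNPAB and 0.28 for PCBP1. For 4 the value was lower in experiment 1, by -0.63 for HNRNPUL1, -0.52 for HNRNPUL2, -0.40 for PCBP2 and -0.33 for SYNCRIP. Adjusted p ran from 2.63e-09 for HNRNPH2 to 0.0419 for PCBP1 over these 21.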

How the results depend on the processing

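With a 1.5-fold limit, 0 members were called higher and 0 lower in experiment 1 (other splicing genes 0 and 1), and 1 higher and 2 lower in experiment 2 (others 4 and 7). In experiment 2 the members called higher came to 6 with upper quartile scaling and to 5 in the fit of 12 libraries, against 10. Calls over all genes, in either direction, came to 65.15% and 58.85% in these settings, against 65.03%. Deviations of same-numbered libraries correlated at 0.25, -0.22 and -0.14 in experiment 1 and at 0.0049, 0.076 and -0.065 in experiment 2. Differently numbered libraries were not compared in this way, so these values cannot settle whether replicate numbers pair the libraries. With the number as a block, experiment 1 gave 5 members higher and 0 lower and 15 other splicing genes higher and 3 lower, HNRNPH3 turned to 0.026, and experiment 2 kept 10 higher and 15 lower. With this block, 12.26% of all genes were called in experiment 1 and 64.8% in experiment 2, against 20.92% and 65.03% without it. Leaving out 1 library of experiment 1 gave 5 to 14 members higher and 0 to 2 lower, and 7 to 40 other splicing genes higher and 3 to 6 lower; the fewest members higher came without uninduced replicate 2 (5), induced replicate 1 (6) or induced replicate 3 (6), and 1 lower without uninduced replicate 1. Calls over all genes also moved, with 8.15%, 14.7% and 8.6% without induced replicate 1, 2 and 3, and 14.2%, 10.9% and 26.9% without uninduced replicate 1, 2 and 3, against 20.9%. Other splicing genes called higher were 8 without induced replicate 1, 7 without induced replicate 3, 14 without uninduced replicate 2 and 40 without uninduced replicate 3. Signs of uncalled members turned with scaling: HNRNPA1 -0.012 (library totals) and -0.022 (upper quartile), HNRNPU -0.0021 and -0.012, SRSF9 -0.0040 (upper quartile), all in experiment 1, and HNRNPAB -0.0054 and -0.020 in experiment 2. They also turned over the leave-one-out fits, which gave in experiment 1 -0.084 to 0.061 for HNRNPA0, -0.023 to 0.046 for HNRNPA1, -0.0084 to 0.14 for HNRNPA2B1, -0.19 to 0.037 for HNRNPD, -0.066 to 0.0077 for HNRNPH1, -0.14 to 0.285 for HNRNPH3, -0.040 to 0.12 for HNRNPU, -0.011 to 0.15 for PCBP1 and -0.025 to 0.060 for SRSF9, and in experiment 2 -0.062 to 0.053 for HNRNPAB, -0.0070 to 0.22 for HNRNPH3, -0.033 to 0.049 for SRSF12 and -0.0035 to 0.076 for SRSF6. The cause was not tested. Scaling moved the median of all genes by under 0.1. Member circRNAs called stayed at 0 throughout, and members different between the contrasts at 19 to 22. With 3 libraries a group and few back-splice reads, small changes and circRNA differences of members could be missed.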
